A study of Mus musculus with 12 samples.

Results

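Thymus gene expression at 3 months of age was compared with that at 2 weeks, the widest span of age among the sequenced samples. The comparison uses 4 RNA libraries, 2 from 2-week-old (2W) and 2 from 3-month-old (3M) mice, chosen by the age in their labels, out of 6 RNA libraries and 12 libraries in all with those of small RNA. All were wild type C57BL/6 mice, an inbred laboratory strain, and males by the study's methods, with no agent or altered allele named, and each library was made from total RNA of the whole frozen organ. Whether a library holds 1 or several animals is not given in the sources used here. Counts of transcripts were summed over each gene symbol, which gave 22843 genes, and the 14341 genes with enough counts were tested.

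The thymus is the organ in which T cells form. Thymocytes rearrange their antigen receptor genes and are selected on a stroma of cortical and medullary epithelium, fibroblasts, vessels, macrophages and dendritic cells. The organ grows quickly after birth and later involutes, when lymphoid tissue shrinks and fat takes its place. In RNA of whole tissue, fewer cells of a type and less RNA per cell cannot be told apart, and the same holds for more cells and more RNA per cell.

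The estimated counts summed to 16519753 and 17021888 in the 2W libraries and to 16789619 and 21789959 in the 3M libraries. Levels are given as normalised CPM (counts scaled to the depth of the library) of library replicates 1 and 2 in that order. Over the tested genes, Spearman's rho was 0.989 between the 2W libraries, 0.983 between the 3M libraries and 0.966 to 0.973 between ages. The label of thymus was checked against defining markers: the recombinase gene Rag1 measured 1268 and 1510 FPKM (fragments scaled by transcript length and depth, a level per length) at 2W and 1075 and 1090 FPKM at 3M, and Cd3e of the T cell receptor complex 220 to 290 FPKM. The epithelial genes Psmb11, Foxn1 and Aire, which mark the thymus, were found in all 4 libraries at 20.9 to 25.2, 4.13 to 7.92 and 2.58 to 3.60 FPKM.

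Most genes called between the 2W and the 3M thymus were higher at 3M, by a share that depended on the fit. Some genes of fat storage, complement, antibody, macrophages, cytotoxic lymphocytes, the interferon response and antigen presentation rose. Genes of fetal growth were among those that fell. Matrix genes were called in both directions, with 4 higher and 3 lower of elastic fibres and 2 higher and 2 lower of collagens. By edgeR's quasi-likelihood F test at a Benjamini-Hochberg adjusted p under 0.05, 551 genes were higher at 3M (3.84% of those tested) and 112 were lower (0.781%). Counts of called members in the gene lists below are to be read against these 2 shares. The median log2 fold change was 1.39 for the former and -1.29 for the latter, and 151 of the former and 29 of the latter changed more than 4-fold. All 663 had libraries that did not overlap between the ages, as did 27.9% of all tested genes in the direction of higher (3995) and 23.8% in the direction of lower (3414). At the threshold of the study, which asks for a change of more than 1 on the log2 scale and a p, not adjusted, below 0.05, 1074 genes were higher (7.49%) and 217 lower (1.51%).

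These counts depend on the fit. With DESeq2, 1350 genes were called, of which 951 (70.4%) were higher, against 83.1% with edgeR. With annotated transcripts only, without those that the authors assembled, 2 genes were called, Igf2bp3 and Igfbp5, although 632 of the 636 called genes present there had the same sign and 591 an unadjusted p under 0.05. Without a 2W library 336 (replicate 1) or 364 (replicate 2) genes were called, and without a 3M library 2287 (replicate 1) or 1922 (replicate 2). Such a fit has 1 residual degree of freedom: the spread comes from the other age alone and the lone library is assumed to vary like it. The ranges given below with a library left out are therefore no measure of stability. The exact permutation test of 2 libraries against 2 cannot give a p under 0.333 for a single gene. The filter on low counts asks for 0.598 CPM, before TMM scaling, in 2 libraries. Of the genes that rose, 73 met it only through their 3M pair, and in 58 of these neither 2W library reached that level, so that their direction was fixed by the filter. Of those that fell, 14 met it only through their 2W pair. Of the called genes, 15 consist of assembled transcripts alone and are counted but not named.

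**Figure D1:**
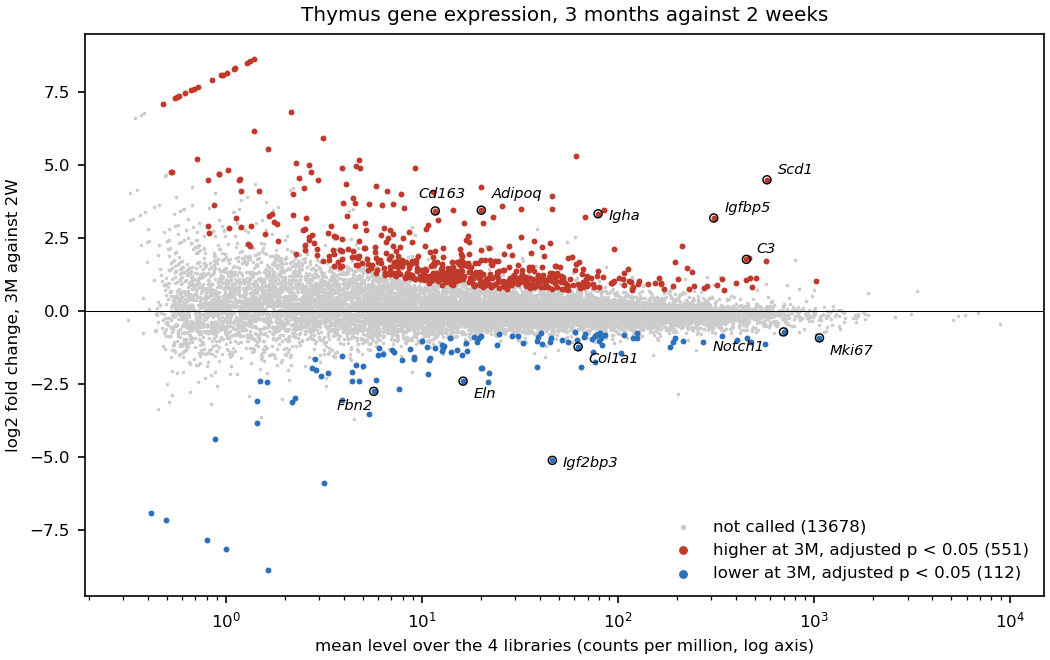
Log2 fold change (3M against 2W) of each tested gene by its mean CPM over the 4 libraries on a log axis, with genes at an adjusted p under 0.05 in red (551 higher) and blue (112 lower) and 12 labelled examples. Points on the sloping line at the upper left and the scattered ones at the lower left are genes at 0 in both libraries of an age, whose fitted value is no measured fold.

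The most certain rise was that of Igfbp5, a secreted binding protein for insulin-like growth factors. It measured 57.5 and 63.8 CPM at 2W and 551 and 560 CPM at 3M (log2 fold change 3.20 ± 0.16 SE (standard error), adjusted p = 0.00433). The libraries of each age lay close together and those of the 2 ages far apart. Of the 16 tested genes of the IGF and growth hormone system, it was the 1 called by edgeR (6.25%, against 3.84% of all tested genes called higher). At an unadjusted p under 0.05 by edgeR there were 8, and DESeq2 called 4 higher. The receptor gene Igf1r had a log2 fold change of -0.24 (adjusted p = 0.420) and Igf1 one of 0.34 (adjusted p = 0.531).

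The most certain fall was that of Igf2bp3, which encodes an RNA-binding protein of fetal tissues that binds Igf2 mRNA. It went from 78.3 and 102 CPM at 2W to 2.72 and 2.48 CPM at 3M (log2 fold change -5.11 ± 0.22 SE, adjusted p = 0.00433). Plag1, a transcription factor of fetal growth, fell from 29.1 and 44.1 to 7.52 and 6.21 CPM (log2 fold change -2.42 ± 0.26 SE, adjusted p = 0.0163). The list of the fetal growth programme has 12 genes, of which 7 were tested. These 7 all had lower libraries at 3M, as did 23.8% of all tested genes, with 2 of them called and a median log2 fold change of -0.70. The growth factor gene Igf2 itself fell from 6.63 and 9.35 to 1.84 and 1.22 CPM (log2 fold change -2.39 ± 0.36 SE, adjusted p = 0.0287). Assembled transcripts hold 63.8% of its counts, and with annotated transcripts only its log2 fold change was -1.33. Igf2 and Cdkn1c, an inhibitor of cyclin-dependent kinases (log2 fold change -1.66, adjusted p = 0.0309), were the 2 called of 20 tested imprinted genes (1 to 2 with a library left out).

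The other genes of smallest p among those that rose have diverse roles. Scn7a, of the sodium channel family, measured 3.04 and 4.80 CPM at 2W and 52.6 and 42.0 CPM at 3M (log2 fold change 3.59 ± 0.27 SE, adjusted p = 0.0156). The sodium channel gene Scn1a had a log2 fold change of 4.09 (adjusted p = 0.0147), but 91.4% of its counts lie in assembled transcripts and the value with annotated ones only was 1.49. Lifr, a receptor of the interleukin 6 family, measured 208 and 200 CPM at 2W and 686 and 766 CPM at 3M (log2 fold change 1.83 ± 0.15 SE, adjusted p = 0.0163). Gpx3, a secreted glutathione peroxidase, rose from 13.3 and 15.9 to 72.6 and 63.0 CPM (log2 fold change 2.22, adjusted p = 0.0163). Fam107a rose from 0.867 and 0.307 to 16.0 and 19.6 CPM (log2 fold change 4.91 ± 0.42 SE, adjusted p = 0.0163), but it met the filter on low counts only through its 3M libraries. Unc13b, a vesicle priming factor, Als2cl, Shisa2 and the monocyte and lymphocyte surface gene Ly6c2, which has a near-identical copy that could share its reads, rose with log2 fold changes of 2.81, 1.91, 1.98 and 1.75 at the same adjusted p.

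Among the genes of smallest p that fell, Capn3, a calcium-dependent protease, went from 60.9 and 60.7 to 18.3 and 14.4 CPM (log2 fold change -1.90 ± 0.18 SE, adjusted p = 0.0163). Ncam1, a neural cell adhesion molecule, fell from 18.3 and 16.9 to 3.08 and 4.82 CPM (log2 fold change -2.15 ± 0.26 SE, adjusted p = 0.0209). H1f0, the linker histone H1.0, fell from 83.8 and 122 to 26.8 and 28.4 CPM (log2 fold change -1.90, adjusted p = 0.0195). The spread between the 2W libraries of H1f0 was smaller than the gap between the ages. Syt14, Phlda1 and Wscd1 fell with log2 fold changes of -1.94, -1.93 and -1.38, Ilvbl with -1.43, Gm42742 with -2.12 and the metalloprotease gene Adam12 with -1.39. For Adcy1, an adenylate cyclase, the log2 fold change was -1.49 (adjusted p = 0.0214), but -0.30 with annotated transcripts only.

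**Figure D2:**
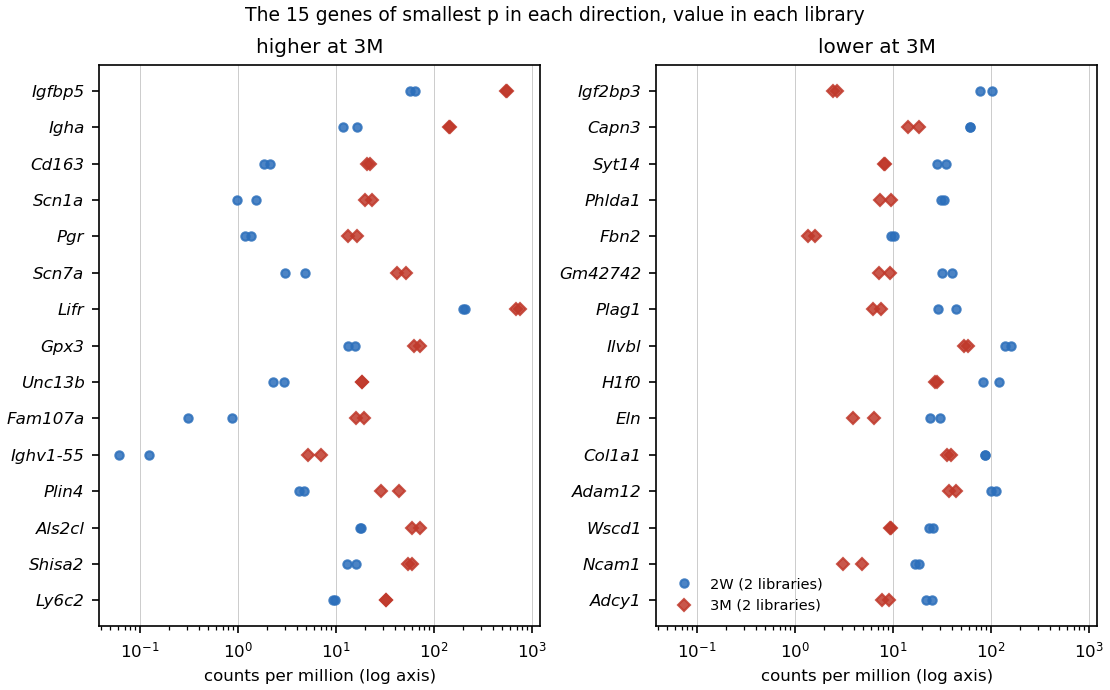
CPM on a log axis in each of the 2 libraries of 2W (blue circles) and 3M (red diamonds) for the 15 genes of smallest p in each direction. The genes were picked among those whose libraries do not overlap between the ages, so no row could show an overlap. Igf2bp3 shows 78.3 and 102 CPM against 2.72 and 2.48 CPM.

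Some genes of white fat and some enzymes of fatty acid synthesis rose. White adipocytes store triglyceride in droplets coated by perilipins and secrete hormones such as adiponectin and resistin. Of 16 tested white adipocyte genes, 9 rose (56.2%, against 3.84% of all tested genes) and none fell, with a median log2 fold change of 2.79 against -0.02 over all tested genes. Adipoq, the adiponectin gene, measured 2.91 and 3.75 CPM at 2W and 50.5 and 23.3 CPM at 3M (log2 fold change 3.46 ± 0.42 SE, adjusted p = 0.0207). Plin4, a perilipin, rose from 4.77 and 4.24 to 44.5 and 28.9 CPM (log2 fold change 3.02 ± 0.27 SE, adjusted p = 0.0163). Cfd, the adipsin gene, rose from 7.0 and 4.06 to 114 and 58.5 CPM (log2 fold change 3.96 ± 0.42 SE, adjusted p = 0.0163). In each of these genes 3M replicate 1 was higher than 3M replicate 2, and both were above the 2W libraries. Car3, the carbonic anhydrase of fat and muscle, Retn (resistin), Cidec, Plin1 and the lipases Lipe and Pnpla2 rose as well, by log2 fold changes of 3.49, 4.31, 3.13, 3.02, 1.42 and 1.03. Of the 9, Retn met the filter on low counts only through its 3M libraries. Fabp4, the fatty acid binding protein of adipocytes, measured 23.8 and 24.0 CPM at 2W and 67.4 and 41.3 CPM at 3M and missed the threshold (log2 fold change 1.18, adjusted p = 0.0549).

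The CPM of the 16 genes summed to 177.5 and 224.4 at 2W and to 1027 and 520.9 at 3M. With each library left out in turn, 7 to 16 of them were called higher. Of 10 tested genes of brown and beige fat, 1 rose, Elovl3, an elongase of very long chain fatty acids (0.310 and 0.246 CPM at 2W, 2.07 and 2.16 CPM at 3M, log2 fold change 2.90, adjusted p = 0.0329). Neither 2W library of Elovl3 reached the level of the filter on low counts, so its direction was fixed by the filter. Ucp1, the uncoupling protein that defines brown fat, measured 4.33 and 34.5 CPM at 2W and 65.5 and 48.3 CPM at 3M (log2 fold change 1.55, adjusted p = 0.320), so that its 2W libraries differed from each other more than the 3M libraries did. Of the 10, 0 to 6 were called higher with a library left out.

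Of 19 tested genes of fatty acid synthesis, 4 rose (21.1%, against 3.84% of all tested genes) and none fell, with a median log2 fold change of 1.17. With a library left out 4 to 11 rose, and the median ran from 0.50 (without 3M replicate 1) to 1.68 (without 3M replicate 2). The desaturase gene Scd1 measured 41.2 and 55.8 CPM at 2W and 1775 and 432 CPM at 3M (log2 fold change 4.51 ± 0.68 SE, adjusted p = 0.0290). Assembled transcripts hold 95.8% of the Scd1 counts, and with annotated ones only its log2 fold change was 2.50. Thrsp, a regulator of lipogenesis (log2 fold change 3.50), Acacb, an acetyl-CoA carboxylase (2.32, and 6.23 with annotated transcripts only), and Acsl1, an acyl-CoA synthetase (1.63), also rose. Fasn, the fatty acid synthase, stood at 412 and 320 CPM at 2W and 1706 and 756 CPM at 3M, with an adjusted p of 0.0574. In both Scd1 and Fasn 3M replicate 1 was the highest library. Acly, which makes the acetyl-CoA used in this synthesis, stood at 447 and 410 CPM at 2W and 542 and 419 CPM at 3M, so that its ages overlapped (log2 fold change 0.16, adjusted p = 0.648). None of 20 tested genes of cholesterol synthesis was called by edgeR, with 8 at an unadjusted p under 0.05 and 5 called lower by DESeq2. EdgeR called 0 to 5 of them lower with a library left out. Of the 20, 14 had lower libraries at 3M, as did 23.8% of all tested genes, with a median log2 fold change of -0.42.

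Complement, a cascade of plasma proteins that tags microbes and debris, had many called members. Of 17 tested genes, 12 rose (70.6%, against 3.84% of all tested genes) and none fell. The median log2 fold change was 1.44 (1.19 to 1.68 with a library left out). C3, the central component, measured 240 and 169 CPM at 2W and 748 and 652 CPM at 3M (log2 fold change 1.78 ± 0.21 SE, adjusted p = 0.0196). C4b, of the classical pathway, rose from 9.29 and 9.35 to 65.3 and 43.8 CPM (log2 fold change 2.55 ± 0.24 SE, adjusted p = 0.0163). In both genes the lowest 3M library stood well above the highest 2W library. Per length C3 stood above C4b at each age, with 129 to 144 FPKM against 7.74 to 11.4 FPKM at 3M. The terminal components C7 (0.619 and 0.123 to 8.53 and 7.07 CPM, adjusted p = 0.0243) and C6 (0.372 and 1.17 to 7.17 and 7.88 CPM, adjusted p = 0.0299) rose by log2 fold changes of 4.37 and 3.28, and both met the filter on low counts only through their 3M libraries. The initiators C1ra, C1s1 and C2 rose by 1.32, 1.14 and 1.16, the alternative pathway factor Cfb by 1.72, the receptor gene C3ar1 by 1.76 and the regulator Clu by 1.0. For the inhibitor Serping1 the log2 fold change was 1.44 (adjusted p = 0.0329), but 72.5% of its counts lie in assembled transcripts and it was -0.42 with annotated ones only.

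Some antibody genes rose. Plasma cells secrete antibody whose heavy chain constant region gives its class. Of 26 tested B cell and plasma cell genes, 10 rose (38.5%, against 3.84% of all tested genes) and none fell (median log2 fold change 1.08). Between 7 and 17 rose and 0 to 1 fell with a library left out, and the median was 0.70 without 3M replicate 1. Igha, the constant region of IgA, measured 16.5 and 11.9 CPM at 2W and 143 and 146 CPM at 3M (log2 fold change 3.34 ± 0.21 SE, adjusted p = 0.00903). Ighg2b rose from 16.3 and 9.90 to 148 and 96.5 CPM (log2 fold change 3.22 ± 0.32 SE, adjusted p = 0.0163), and Ighg2c and Ighg3 rose by 4.26 and 4.89. For these 4 classes both 3M libraries were above both 2W libraries, as in every gene called higher. Ighm, of IgM, rose by 0.84 from 384 and 311 to 632 and 612 CPM (adjusted p = 0.0444). The light chain gene Iglc1 rose from 0.186 and 0.307 to 13.3 and 5.31 CPM (log2 fold change 5.19, adjusted p = 0.0208), but it and Iglc2, which rose by 1.94, are near-identical, so that reads may be split between them. The plasma cell surface gene Sdc1 rose by 1.33, the B cell receptor inhibitor Cd22 by 1.80 and Fcrl5 by 2.86. For 3 of the 10, Iglc1, Ighg3 and Fcrl5, neither 2W library reached the level of the filter on low counts, so their direction was fixed by the filter. Cd79a, which defines B cells, was not called, with a log2 fold change of 0.39 (adjusted p = 0.600).

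Variable segments of antibody genes were also looked at, a group put together after their values were seen. Of 218 in the table, 69 were tested and 33 were called higher. Nearly all of the 33 passed the filter on low counts only through their 3M libraries. In most of these, Ighv1-55 and Ighv1-80 among them, neither 2W library reached its level, so their direction was fixed by the filter. The count of calls is therefore no evidence of a rise. The CPM of the 69 tested segments summed to 15.6 and 7.19 at 2W and to 210.7 and 166.5 at 3M, and segments that failed the filter are not in these sums. For Ighv1-55 the 2W libraries held 2 and 1 counts and the 3M libraries 88 and 157, a ratio of 67.7 with a 95% counting interval of 22.9 to 331. Ighv1-80 had no count at 2W and in the 3M libraries 45 and 64 counts, at least 14.9-fold higher against 3 counts per library. Segments resemble each other closely, so the share of each is uncertain. The interval covers counting error only, since copies of a molecule made by PCR cannot be recognised.

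Some macrophage genes rose. Thymic macrophages engulf the many thymocytes that die in selection. Of 21 tested genes, 10 rose (47.6%, against 3.84% of all tested genes) and none fell. The median log2 fold change was 1.10 (0.89 to 1.31 with a library left out). Higher libraries at 3M were found in 19 of the 21, and in 27.9% of all tested genes. Cd163, the scavenger receptor for haemoglobin, measured 2.11 and 1.84 CPM at 2W and 20.8 and 22.1 CPM at 3M (log2 fold change 3.44 ± 0.21 SE, adjusted p = 0.00903). Cx3cr1, the fractalkine receptor, rose from 1.98 and 2.15 to 9.83 and 9.23 CPM (log2 fold change 2.20 ± 0.26 SE, adjusted p = 0.0195), and Lyz2, a lysozyme, from 138 and 132 to 373 and 315 CPM (log2 fold change 1.35, adjusted p = 0.0196). Each of these 3 genes had replicates that lay close together. The lipoprotein gene Apoe rose by 1.67, the adhesion receptor Siglec1 by 1.68 (0.87 with annotated transcripts only), the growth factor receptor Csf1r by 1.10, the complement gene C1qb by 1.22, Mertk, which recognises dying cells, by 1.11, Vcam1 by 0.79 and the mannose receptor Mrc1 by 0.76. Adgre1, the F4/80 antigen, stood at 21.6 and 28.7 CPM at 2W and 39.0 and 46.8 CPM at 3M (adjusted p = 0.0837).

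Of 16 tested dendritic cell genes, 3 rose (18.8%, against 3.84% of all tested genes): Itgax (CD11c, log2 fold change 1.52, adjusted p = 0.0294), Itgae (CD103, 1.17) and Cd209a (2.39). Cd209a met the filter on low counts only through its 3M libraries. DESeq2 called 7 higher, and edgeR 1 to 7 higher and 0 to 1 lower with a library left out. The chemokine gene Ccl22 stood at 68.7 and 61.5 CPM at 2W and 30.4 and 51.1 CPM at 3M (log2 fold change -0.67, adjusted p = 0.199). Xcr1, which defines the dendritic cells that cross-present antigen, had a log2 fold change of 1.15 (adjusted p = 0.0811). Of 19 tested chemokines, 5 rose (26.3%, against 3.84% of all tested genes). Ccl11 (eotaxin) measured 1.61 and 3.26 CPM at 2W and 18.8 and 19.4 CPM at 3M (log2 fold change 2.97 ± 0.34 SE, adjusted p = 0.0195), and Ccl8, Ccl6, Cxcl9 and Cxcl16 rose by 2.50, 1.47, 1.31 and 1.14. Of the chemokines, 2 to 9 were called higher with a library left out. None of 12 tested genes of granulocytes and mast cells was called by edgeR or DESeq2, with 3 at an unadjusted p under 0.05 by edgeR. Of the 12, 3 had higher and 2 lower libraries at 3M, against 27.9% and 23.8% of all tested genes. Their log2 fold changes ran from -1.48 to 3.01, with a median of -0.17 (-0.70 to 0.31 with a library left out). The calprotectin gene S100a8 stood at 13.8 and 8.86 CPM at 2W and 2.43 and 8.20 CPM at 3M (adjusted p = 0.319).

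Some genes for antigen presentation rose, 33.3% of those tested against 3.84% of all tested genes. Of 21 tested, 7 rose and none fell (median log2 fold change 0.70), but with a library left out 0 to 14 were called. H2-K1, of MHC class I, measured 331 and 300 CPM at 2W and 663 and 735 CPM at 3M (log2 fold change 1.15 ± 0.15 SE, adjusted p = 0.0214). H2-Aa, of MHC class II, rose from 274 and 265 to 473 and 583 CPM (log2 fold change 0.97 ± 0.16 SE, adjusted p = 0.0329). In both classes the replicates of an age differed by less than the ages did. H2-Eb1 rose by 1.10, H2-D1 by 1.12, and H2-DMb1 and H2-Ob, which act in the loading of class II, by 1.25 and 1.18. Nlrc5, an activator of class I genes, rose by 1.05. The class I genes are similar in sequence, and H2-Q6, which rose by 1.28, can share reads with its neighbours.

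Interferon-stimulated genes, which cells switch on through a complex of transcription factors when they sense interferon, rose in part. Of 32 tested, 14 rose (43.8%, against 3.84% of all tested genes) and none fell (median log2 fold change 0.88). Higher libraries at 3M were found in 30 of the 32, and in 27.9% of all tested genes. With a library left out, 4 to 24 were called. The promoters of 6 of them are shown because they share a motif of GAAA, any 2 bases and GAAA again, the core of the response element that this complex and other IRF proteins bind. The windows run from 250 bases before to 50 bases after the start of the gene in RefSeq (GRCm38.p6), and the motif was searched on both strands, with matches allowed to overlap. The stretches, 5′ to 3′ along the strand of the gene with the matches in capitals, lie at chr19:34607744-34607837 (Ifit3b, plus strand), chr5:120907505-120907570 (Oas1a, minus), chr5:120777700-120777759 (Oas3, minus), chr12:26456538-26456597 (Rsad2, minus), chr11:48871410-48871475 (Irgm1, minus) and chr11:58199497-58199556 (Igtp, plus).
Ifit3b: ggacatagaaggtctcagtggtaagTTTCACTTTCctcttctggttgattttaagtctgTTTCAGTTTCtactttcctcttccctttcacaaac
Oas1a: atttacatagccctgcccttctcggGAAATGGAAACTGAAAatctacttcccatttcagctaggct
Oas3: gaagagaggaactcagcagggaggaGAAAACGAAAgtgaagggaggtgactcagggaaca
Rsad2: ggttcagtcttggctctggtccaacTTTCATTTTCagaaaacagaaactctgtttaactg
Irgm1: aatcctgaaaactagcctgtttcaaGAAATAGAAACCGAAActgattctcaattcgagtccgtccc
Igtp: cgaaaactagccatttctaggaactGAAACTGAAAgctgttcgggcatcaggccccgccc
The first match starts 188, 20, 75, 120, 30 and 34 bases before the start of Ifit3b, Oas1a, Oas3, Rsad2, Irgm1 and Igtp. Of the interferon-stimulated genes tested, 23 have such a window and 15 of these hold the motif (65.2%), against 1079 of 27025 genes in all (3.99%). It was found in 6 of 9 called members (66.7%) and in 9 of 14 others (64.3%). A match is a description of the letters and no evidence of binding.

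Among these genes Rsad2, the antiviral viperin, measured 11.1 and 11.2 CPM at 2W and 28.7 and 28.2 CPM at 3M (log2 fold change 1.35 ± 0.16 SE, adjusted p = 0.0195). Usp18, which restrains interferon signalling, rose from 27.1 and 29.0 to 73.3 and 66.4 CPM (log2 fold change 1.32 ± 0.15 SE, adjusted p = 0.0195). Oas1a and Oas3, which make the activator of RNase L, rose by 1.14 and 0.98, and Ifit3b by 1.22. The GTPase genes Igtp and Irgm1 rose by 0.89 and 0.83. In each of these genes the replicates of an age stood closer to each other than to the other age. Oas2 rose by 1.58, Rtp4 by 1.36, Ifi27l2a by 1.30 and Ifi47 by 1.02, the transcription factors Irf9 and Irf7 by 1.11 and 1.01. Ifit1 and Ifit2, often taken as the lead genes of this response, were not called, with 29.2 and 30.5 against 58.7 and 39.4 CPM for Ifit1 (adjusted p = 0.123) and 56.7 and 75.2 against 72.8 and 46.3 CPM for Ifit2 (adjusted p = 0.794).

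Some genes of cytotoxic and innate-like lymphocytes rose. Of 23 tested genes of regulatory, NKT and cytotoxic T cells, 9 rose (39.1%, against 3.84% of all tested genes) and none fell. The median log2 fold change was 1.14 (0.91 to 1.17 with a library left out). Klrk1, the activating receptor NKG2D, measured 2.17 and 2.03 CPM at 2W and 11.7 and 10.3 CPM at 3M (log2 fold change 2.38 ± 0.25 SE, adjusted p = 0.0163). Cxcr6, a chemokine receptor of NKT and memory cells, rose from 2.60 and 3.07 to 14.2 and 9.77 CPM (log2 fold change 2.07 ± 0.29 SE, adjusted p = 0.0254). Gzmk, a granzyme, had no count at 2W and in the 3M libraries 42 and 20 counts, at least 9.12-fold higher against 3 counts per library. For Gzmk and Fasl, 2 of the 9, neither 2W library reached the level of the filter on low counts, so their direction was fixed by the filter. Klrb1c (NK1.1) rose by 2.94 (4.99 with annotated transcripts only), Fasl by 2.64, Nkg7 by 1.22, Ccl5 by 1.14, the cytokine receptor Il2rb by 1.06, and Zbtb16, the PLZF factor of innate-like T cells, by 1.31. The cytotoxic granule genes Gzma, Gzmb and Prf1 were not called, with log2 fold changes of 0.46, 1.49 and 0.72 (adjusted p = 0.158, 0.102 and 0.176). Foxp3, which defines regulatory T cells, stood at 1.67 and 2.58 CPM at 2W and 1.60 and 1.62 CPM at 3M (adjusted p = 0.633). The killer cell receptors are also expressed by NK cells, and the cells behind them were not told apart.

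None of 16 tested genes of CD4+CD8+ double positive (DP) thymocytes was called by edgeR, with 10 at an unadjusted p under 0.05. All 16 had a negative log2 fold change, with a median of -0.46, and 12 had lower libraries at 3M, as did 23.8% of all tested genes. Rag1 had a log2 fold change of -0.43 (9212 and 11210 CPM at 2W, 7597 and 7581 CPM at 3M, adjusted p = 0.115) and Rag2 one of -0.55 (adjusted p = 0.160). DESeq2 called 8 of the 16, all lower, and with a library left out edgeR called 0 to 6. None of 26 genes of T cell receptor signalling was called by edgeR or DESeq2, with 2 at an unadjusted p under 0.05, 0 to 1 called lower with a library left out and a median of -0.13 (-0.24 to -0.06 with a library left out), and Cd3e had a log2 fold change of -0.21 (adjusted p = 0.519). Of 16 genes of early thymocytes, Notch1, the receptor that commits cells to the T lineage, fell from 868 and 868 to 493 and 568 CPM (log2 fold change -0.71 ± 0.14 SE, adjusted p = 0.0490). Il7r, the receptor for the survival factor interleukin 7, rose from 33.7 and 38.6 to 84.0 and 71.7 CPM (log2 fold change 1.11 ± 0.16 SE, adjusted p = 0.0281). These were the 2 called by edgeR (0 to 2 higher and 0 to 2 lower with a library left out), and DESeq2 called 1 higher and 3 lower. Of 16 genes of mature thymocytes, Gimap3 rose by 1.26 (adjusted p = 0.0207). This is 6.25% of the list, against 3.84% of all tested genes, and DESeq2 called 4 higher. For Ccr7 and S1pr1, which guide cells to the medulla and out of the organ, the log2 fold changes were 0.60 and 0.18 (adjusted p = 0.160 and 0.625).

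Dividing cells copy their DNA and then separate the chromosomes. Of 41 tested genes of replication and mitosis, 2 fell (4.88%, against 0.781% of all tested genes) and none rose. All 41 had a negative log2 fold change (median -0.47), and 35 had lower libraries at 3M, as did 23.8% of all tested genes. DESeq2 called 13 of them lower, and edgeR 0 to 15 with a library left out. Mki67, the proliferation marker Ki-67, fell from 1499 and 1289 to 816 and 662 CPM (log2 fold change -0.92 ± 0.16 SE, adjusted p = 0.0387), and Cenpf, of the kinetochore, from 255 and 261 to 147 and 100 CPM (log2 fold change -1.06, adjusted p = 0.0492). The helicase gene Mcm2 stood at 278 and 264 against 231 and 280 CPM, so that its ages overlapped. Of 64 tested histone genes of S phase, 43 had lower libraries at 3M (median log2 fold change -0.59), as did 23.8% of all tested genes. Of the 64, 2 fell (3.12%, against 0.781% of all tested genes), Hist3h2ba by 1.75 and Hist3h2a by 1.11. DESeq2 called 17 of them lower, and edgeR 2 to 57 with a library left out, with a median of -0.88 without 3M replicate 2 and -0.37 without 3M replicate 1. Histone mRNAs of this kind mostly lack poly(A) tails and have near-identical copies. Of 15 genes of V(D)J recombination and end joining, Hmgb2, a DNA-bending protein, fell by 1.06 from 431 and 303 to 191 and 162 CPM (adjusted p = 0.0493), and 0 to 3 genes fell with a library left out and 3 with DESeq2. None of 20 genes of cell death and survival was called by edgeR, with 4 at an unadjusted p under 0.05, 1 called lower by DESeq2 and 0 to 2 in each direction by edgeR with a library left out. Bcl2 had a log2 fold change of 0.51 and Bcl2l1, its relative in DP cells, of -0.60 (adjusted p = 0.144 and 0.0669).

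The epithelium that supports thymocytes has a cortical and a medullary part. Of 14 tested cortical epithelial genes, Enpep, the aminopeptidase A of cortical cells, rose from 25.4 and 26.9 to 68.8 and 59.7 CPM (log2 fold change 1.30 ± 0.16 SE, adjusted p = 0.0207). Dll4, the Notch ligand that the cortex presents to thymocytes, fell from 26.0 and 25.5 to 15.3 and 13.1 CPM (log2 fold change -0.86 ± 0.17 SE, adjusted p = 0.0465). Foxn1, the master regulator of thymic epithelium, stood at 27.6 and 21.6 CPM at 2W and 14.1 and 13.9 CPM at 3M (log2 fold change -0.82, adjusted p = 0.0625), with 91.2% of its counts in assembled transcripts. Psmb11, the proteasome subunit found in the cortex, had overlapping ages and a log2 fold change of 0.06. Of the cortical genes, 1 to 3 rose and 0 to 2 fell with a library left out, and DESeq2 called 3 higher and 2 lower. Of 14 medullary genes, Trp63, of basal epithelial progenitors, rose from 32.6 and 33.2 to 89.4 and 87.0 CPM (log2 fold change 1.42 ± 0.14 SE, adjusted p = 0.0163). This is 7.14% of the list, against 3.84% of all tested genes. Aire, which drives display of tissue antigens, had a log2 fold change of 0.07 (adjusted p = 0.892), and Fezf2 one of 0.39 (adjusted p = 0.571). Of the medullary genes, 1 to 5 rose and 0 to 1 fell with a library left out, and DESeq2 called 3 higher. Of 18 genes of mimetic cells, medullary cells that take on the features of other tissues, the tuft cell genes Trpm5 and Dclk1 rose by 2.10 and 1.18 (adjusted p = 0.0490 and 0.0348), and 5 genes rose with DESeq2 and 0 to 6 with a library left out.

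Matrix genes were called in both directions. Elastic fibres consist of an elastin core on a scaffold of fibrillins, to which latent TGF-beta binding proteins attach. Of 21 tested genes, 3 fell and 4 rose, and with a library left out 2 to 5 fell and 2 to 7 rose. Eln, the elastin gene, fell from 24.2 and 30.3 to 6.46 and 3.96 CPM (log2 fold change -2.40 ± 0.28 SE, adjusted p = 0.0195), and Fbn2, the fibrillin of developing tissue, from 10.3 and 9.53 to 1.60 and 1.35 CPM (log2 fold change -2.75 ± 0.27 SE, adjusted p = 0.0163). Fbln2 fell by 0.90. The 4 latent TGF-beta binding proteins were those that rose: Ltbp1, from 8.61 and 8.30 to 26.7 and 24.9 CPM (log2 fold change 1.61, adjusted p = 0.0163), Ltbp2 by 1.70, Ltbp3 by 1.18 and Ltbp4 by 1.10. Fbn1 missed the threshold (log2 fold change -0.51, adjusted p = 0.102).

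Of 32 tested collagens, 2 fell and 2 rose, and with a library left out 1 to 4 fell and 0 to 3 rose. The fibrillar Col1a1 fell from 87.6 and 87.8 to 39.2 and 36.1 CPM (log2 fold change -1.22 ± 0.14 SE, adjusted p = 0.0195), and Col3a1 from 241 and 274 to 122 and 97.6 CPM (log2 fold change -1.23 ± 0.18 SE, adjusted p = 0.0267). Col1a2, the partner chain of Col1a1, had a log2 fold change of -0.40 (adjusted p = 0.219) that was 0.95 with annotated transcripts only, where 40.3% of its counts are missing. Col12a1, which associates with fibrils, and Col18a1, of basement membranes, rose by 0.98 and 0.90. Of 18 tested fibroblast genes, 6 rose (33.3%, against 3.84% of all tested genes) and none fell. The median log2 fold change was 1.02 (0.77 to 1.05 with a library left out). Pdgfra measured 7.06 and 9.65 CPM at 2W and 24.0 and 19.6 CPM at 3M (log2 fold change 1.38, adjusted p = 0.0325), and Dcn (decorin), Mgp, Acta2, Gsn and Sfrp1 rose by 1.44, 1.55, 1.17, 1.09 and 1.03. Pdgfrb, the related receptor of fibroblasts and pericytes, stood at 20.4 and 16.8 CPM at 2W and 16.4 and 22.6 CPM at 3M, with ages that overlapped (log2 fold change 0.07, adjusted p = 0.890). Of 21 endothelial genes, Flt1, Vwf and Acvrl1 rose by 1.25, 1.19 and 1.11 (0 to 6 genes with a library left out, with list medians of -0.02 to 0.57), whereas Pecam1 and Cdh5, which define the type, had log2 fold changes of -0.33 and -0.45 (adjusted p = 0.260 and 0.226).

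**Figure D3:**
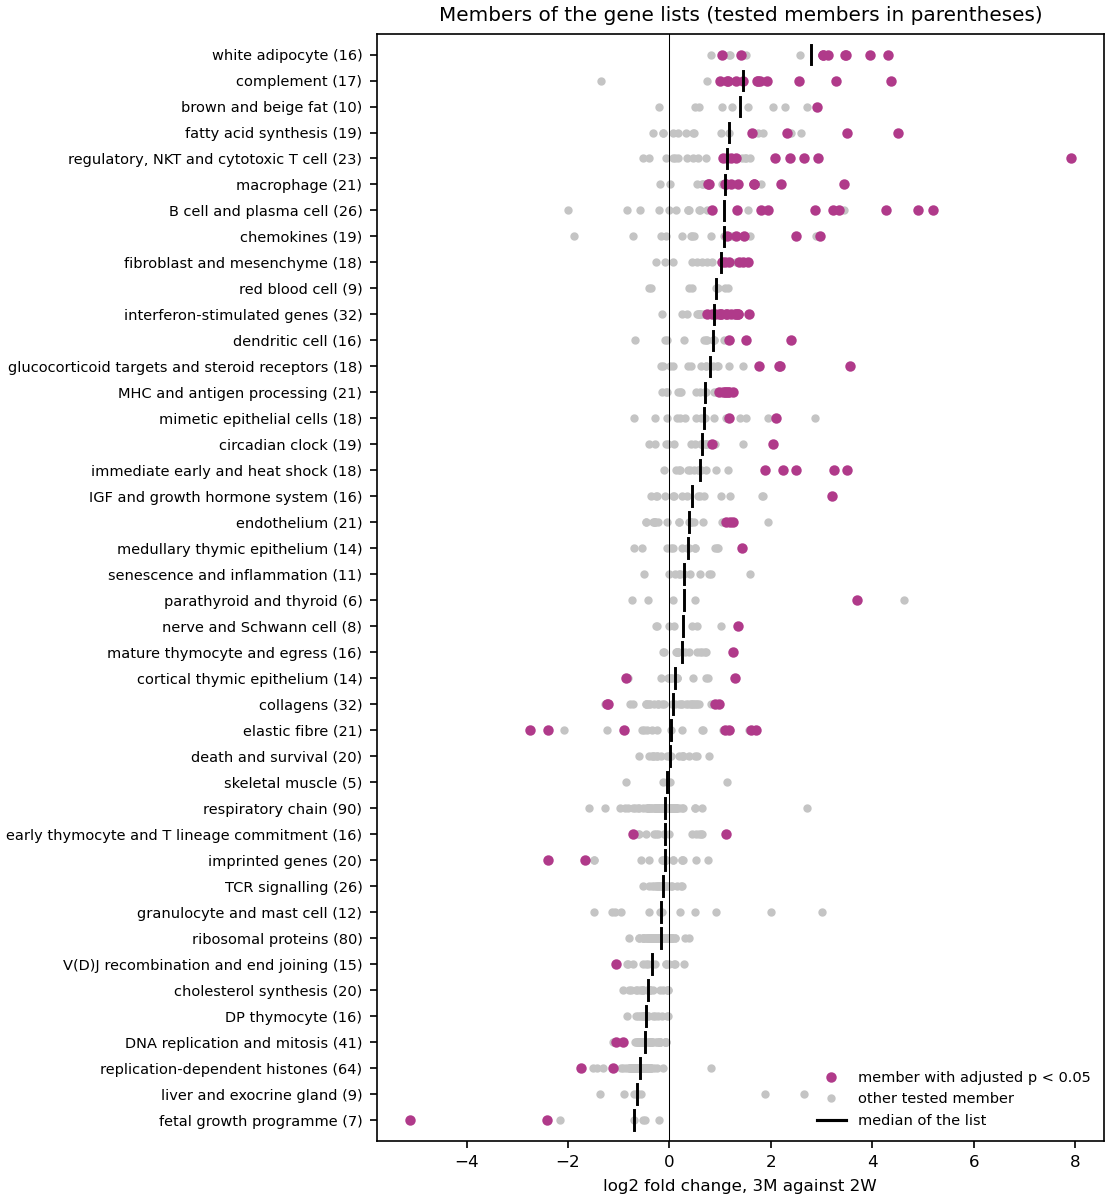
Log2 fold change (3M against 2W) of each tested member of each gene list of the design, with members at an adjusted p under 0.05 in purple, others in grey and the median as a bar. Among these lists, white adipocyte genes have the highest median (2.79) and genes of the fetal growth programme the lowest (-0.70), and the point near 8 is Gzmk, which had no count at 2W and whose plotted value is no measured fold.

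Some receptors of steroid hormones rose. These are transcription factors that bind the hormone and then DNA. Of 18 tested steroid receptors and glucocorticoid targets, 4 rose (22.2%, against 3.84% of all tested genes) and none fell (median log2 fold change 0.79). Between 3 and 11 rose with a library left out, and the median was 0.51 without 3M replicate 2. Pgr, the progesterone receptor, measured 1.18 and 1.35 CPM at 2W and 16.4 and 13.5 CPM at 3M (log2 fold change 3.55 ± 0.26 SE, adjusted p = 0.0156). Nr3c2, the mineralocorticoid receptor, rose by 2.18 (adjusted p = 0.0386), and Klf9, a transcription factor induced by glucocorticoids, from 9.35 and 10.9 to 36.2 and 32.6 CPM (log2 fold change 1.77 ± 0.17 SE, adjusted p = 0.0163). Both replicates of 3M stood above those of 2W in each of these genes, as in every gene called higher. The glucocorticoid receptor gene Nr3c1 had a log2 fold change of 0.42 (adjusted p = 0.223), and its target Fkbp5 one of 0.72 (adjusted p = 0.106).

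Some heat shock genes rose. They encode chaperones that cells make when proteins unfold. Hspa1b measured 9.72 and 5.29 CPM at 2W and 65.8 and 104 CPM at 3M (log2 fold change 3.50 ± 0.36 SE, adjusted p = 0.0163), and its near-identical neighbour Hspa1a 4.33 and 4.43 CPM against 29.2 and 53.9 CPM (log2 fold change 3.25, adjusted p = 0.0163). Hspb1 rose from 2.48 and 2.34 to 13.0 and 14.3 CPM (log2 fold change 2.50, adjusted p = 0.0163), Hsph1 from 91.6 and 56.9 to 346 and 359 CPM (log2 fold change 2.25, adjusted p = 0.0192), and the stress-induced Atf3 by 1.89. With these, 5 of 18 tested immediate early and heat shock genes rose (27.8%, against 3.84% of all tested genes). Fos and Fosb, which respond within minutes, had log2 fold changes of 0.56 and 1.16 (adjusted p = 0.427 and 0.225). Of 19 tested clock genes, the repressor Nr1d1 rose from 4.64 and 3.94 to 17.4 and 18.0 CPM (log2 fold change 2.04 ± 0.20 SE, adjusted p = 0.0163) and Tef by 0.83. These 2 are 10.5% of the list, against 3.84% of all tested genes. Higher libraries at 3M were found in 14 of the 19, and in 27.9% of all tested genes. Between 1 and 8 clock genes and between 4 and 8 immediate early and heat shock genes were called higher with a library left out. The hour of harvest is not given in the sources used here, and its part in these values was not tested.

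Markers of tissues around the thymus were followed as well. Pth, the parathyroid hormone gene, measured 1.36 and 0.676 CPM at 2W and 8.47 and 18.0 CPM at 3M (log2 fold change 3.69 ± 0.51 SE, adjusted p = 0.0254), the 1 called of 6 tested parathyroid and thyroid genes (1 to 2 with a library left out). The 6 summed to 11.1 and 9.22 CPM at 2W and 17.9 and 28.8 CPM at 3M. Of 8 nerve genes, Pmp22 rose by 1.34 (0 to 1 genes with a library left out). None of 9 tested red blood cell genes was called by edgeR or DESeq2, with 1 at an unadjusted p under 0.05, and 8 overlapped between the ages, but their sum of 2212 CPM in 3M replicate 2 stood above the 531 to 840 CPM of the other libraries. Without 3M replicate 1, edgeR called 6 of the 9 higher, and without 3M replicate 2 it called 2 lower. None of 9 liver and exocrine gland genes was called by edgeR, with 2 at an unadjusted p under 0.05 and 2 called higher by DESeq2. Without 3M replicate 1, edgeR called 6 of these lower, and 0 to 2 higher in the fits with a library left out. Albumin (Alb) stood at 149, 134 and 179 CPM in 2W replicates 1 and 2 and 3M replicate 1 and at 2.03 CPM in 3M replicate 2. The part of other tissue in the values above was not tested. EdgeR also called none of 5 skeletal muscle genes, 11 genes of senescence and inflammation, 4 Y-linked genes, 80 ribosomal protein genes (median log2 fold change -0.18) and 90 genes of the respiratory chain (median -0.08). At an unadjusted p under 0.05 by edgeR there were 2, 3, 0, 0 and 4 of these, against 3125 of all 14341 tested genes, and DESeq2 called 0, 1, 0, 0 and 1. In the fits with a library left out edgeR called up to 7 ribosomal protein genes, 6 respiratory chain genes and 1 Y-linked gene lower, and up to 2 genes of senescence and 1 of the respiratory chain higher. The medians of ribosomal protein and respiratory chain genes ran there from -0.36 to -0.01 and from -0.15 to -0.03.

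By the KEGG pathways that the deposited table names, 260 had at least 20 tested genes, and 30 of them held no called gene. The largest shares of genes that rose were in Staphylococcus aureus infection (17 of 49, with C4b, Cfb and Cfd of smallest p), Graft-versus-host disease (11 of 36, with Klrc2, H2-Q6 and H2-K1), Allograft rejection (10 of 34), Autoimmune thyroid disease (10 of 35) and Type I diabetes mellitus (10 of 39). The last 4 have H2-Q6 and H2-K1 among their genes of smallest p, so their counts are not separate. Klrc2, the activating receptor NKG2C, rose from 0.433 and 0.369 to 4.44 and 3.60 CPM (log2 fold change 3.30 ± 0.41 SE, adjusted p = 0.0209), with its direction fixed by the filter on low counts, which neither 2W library reached. The largest shares that fell were in Prion diseases (2 of 34, Ncam1 and Notch1), Dorso-ventral axis formation (1 of 20, Notch1), Protein digestion and absorption (3 of 60, Eln, Col1a1 and Col3a1), Notch signaling (2 of 46, Dll4 and Notch1) and Long-term potentiation (2 of 55, Adcy1 and Camk4, a kinase that fell by 0.97). In the first 4 of these more genes rose than fell, with 6, 2, 4 and 4 that rose, and in Long-term potentiation none rose. No gene was called among 128 tested of Ribosome, 148 of RNA transport and 135 of Ubiquitin mediated proteolysis.

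The 6-week (6W) libraries, which took no part in the test, place the changes in time as a description. On a common scale of 6 libraries, both 6W libraries lay between those of 2W and 3M for 416 of the 551 genes that rose and for 83 of the 112 that fell. The median gene had made 66.7% of its log2 rise and 49.9% of its log2 fall by 6W. Of the genes that rose, 143 had made over 80% and 13 under 20%. The median share was 89.9% over the 10 called macrophage genes, 88.3% over the 12 of complement, 85.8% over the 7 of antigen presentation and 74.9% over the 9 of white fat, but 45.3% over the 14 interferon-stimulated genes and 41.1% over the 5 heat shock and immediate early genes. These shares rest on 2 libraries per age, and the differences between them were not tested. Rsad2 stood at 10.3 and 11.6 CPM at 6W, close to its 2W level. The fibrillar collagens Col1a1, at 77.7 and 67.0 CPM, and Col3a1 had made between 21.7% and 23.5% of their falls. Igf2bp3, at 15.6 and 17.0 CPM, stood between the ages, Plag1 stood at 6.49 and 6.05 CPM against 7.44 and 6.28 CPM at 3M on that scale, and Dll4 and Notch1 were lower at 6W than at 3M.

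**Figure D4:**
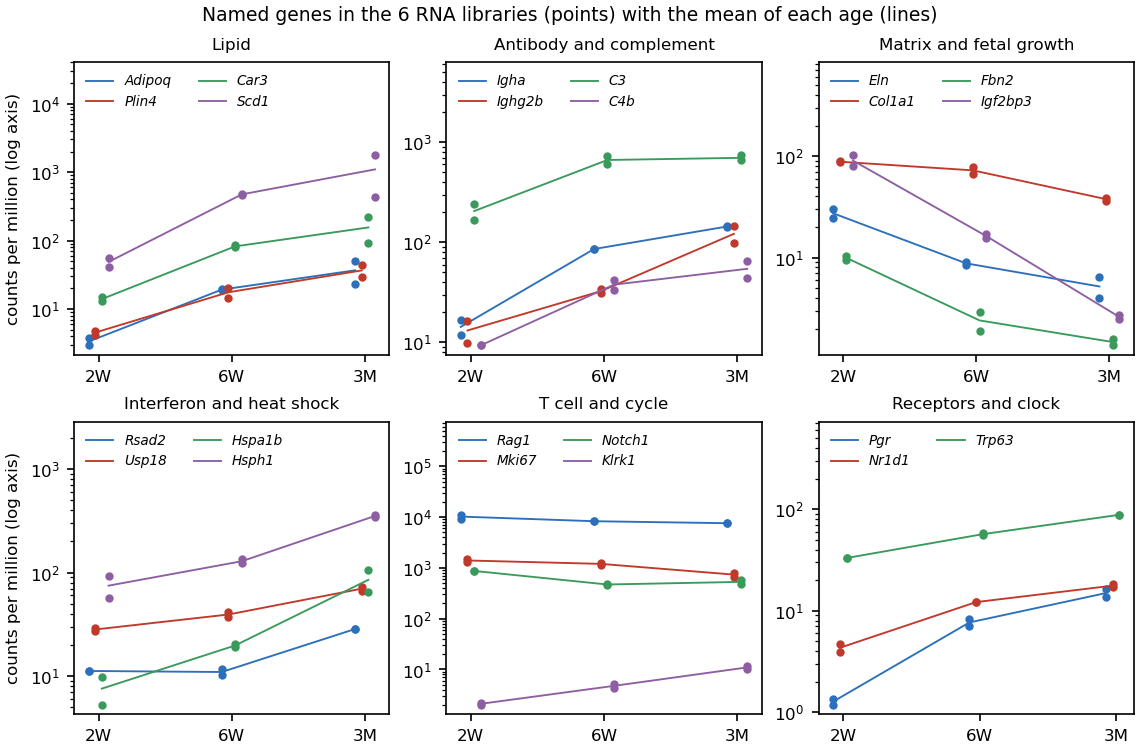
CPM on a log axis of named genes in the 2 libraries of each age (points) with lines through the means of 2W, 6W and 3M, each gene to be read against itself. Rsad2 is at 10.3 and 11.6 CPM at 6W and is at 28.4 and 28.5 CPM at 3M, whereas C3 is at 723 and 608 CPM at 6W and 740 and 659 CPM at 3M.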

How the data were processed

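Estimated counts and FPKM per transcript were computed and deposited by the authors for 2 biological replicates each of 2W, 6W and 3M thymus, from rRNA-depleted, strand-specific libraries. The submitters' processing notes name Bowtie 0.12.2 and mm8 with no role given. The quantifier is not given in the sources used here. Of 77525 transcripts, 10976 were assembled by the authors, and these hold 11.2% to 14.1% of the counts of a library. The 372 transcripts without a symbol (0.699% to 1.195% of the counts) were left out. Counts were summed over symbols that match without regard to case, which joined symbols in 665 genes, and then rounded, since 43.0% to 47.0% of values were not whole. Genes were filtered with filterByExpr (at least 10 counts at the median depth in 2 libraries), scaled by TMM and tested with the quasi-likelihood F test of edgeR 4.0.16 (R 4.3.3), with age as the only term and Benjamini-Hochberg adjustment. Standard errors were derived from the F statistic. The script was tested on simulated data. DESeq2 1.42.0 was an alternative. The study's methods name DESeq at an absolute log2 fold change above 1 and a p, not adjusted, below 0.05. FPKM were used to compare levels between genes and to check the tissue label, and in no test. Summaries used Python 3.11.15, pandas 2.3.3 and scipy 1.17.1.

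By rule, the text names the 15 genes of smallest p in each direction. They were taken among genes with an adjusted p under 0.05, an absolute log2 fold change over 1 and ages whose libraries do not overlap. Genes of assembled transcripts alone were passed over. The rule also names 2 lead genes and up to 5 called members per direction of each gene list, and 5 KEGG pathways per direction, each with 3 genes. Other list members were named after their values were seen. The members and lists were chosen with earlier results of these data known. A fold against an age without counts is a bound against 3 counts per library, and intervals are exact at 95%. Both cover counting error only. No batch is given in the labels, and the other tables of the series were not used. Some genes are not reported here.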

Additional observations from a re-analysis of the deposited data

Results flagged for a closer look

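The 6W libraries took no part in the comparison of 3M with 2W. In 10 of the genes that rose, both 6W libraries lay above both 3M libraries on the common scale of 6 libraries. Their mean level at 6W was 23.7 CPM for Acta2, 53.5 CPM for Bgn, 44.5 CPM for Itgae, 28.6 CPM for Plau and 26.6 CPM for Cyp2a5. It was 18.5 CPM for Serping1, 14.0 CPM for Mgp, 13.3 CPM for Lyz1, 6.70 CPM for Clec4a3 and 4.14 CPM for Cd209a. The gap between 6W and 3M was not tested.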

How the results depend on the processing

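The number of genes called (663) was within 1.5 times under total counts as the only scaling (926, 87.5% of them higher) and without a filter on low counts (947). It was 1350 with DESeq2, 1630 with all 6 libraries in the fit, 1585 with the exact test of edgeR, 398 where symbols in other case were not joined, 2 with annotated transcripts only and 336 to 2287 with a library left out, where 1 age has a lone library that is assumed to vary like those of the other age. The called members of the gene lists (135) numbered 245, 237, 254, 94, 2 and 83 to 331 in the same order. The share of calls that were higher, 83.1%, was 70.4% with DESeq2, 71.8% with 6 libraries and 54.4% without 3M replicate 1. Genes past the study's threshold (1291) numbered 1106 to 1590 in all alternatives. With annotated transcripts only, the common dispersion was 0.05705 against 0.03823.

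The labels do not say that replicate numbers pair the libraries. With a replicate block, 357 genes and 82 list members were called. Deviations of same-numbered libraries correlated at -0.20, and a crossed replicate block, chosen after seeing the data, gave 2755 and 386.

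Of 3040 values of 234 named genes under the alternatives, 2495 kept sign and side of the threshold, 433 lost the call, 91 gained it and 21 changed sign. Of the 175 called, 1 changed sign, Serping1 (-0.42 with annotated transcripts only). The others that changed sign were not called. With annotated transcripts only, Col1a2 was at 0.95, Kit at 0.027 and Pdgfrb at -0.61. With a library left out, the log2 fold change ran from -0.051 to 0.35 for Acly, -0.10 to 0.26 for Aire, -6.14 to 0.35 for Alb, -3.16 to 0.28 for Apoa1, -0.44 to 0.20 for Ddx3y, -0.71 to 1.67 for Hba-a1, -0.51 to 1.83 for Hba-a2, -0.52 to 0.16 for Ifit2, -0.11 to 0.69 for Igf1, -0.13 to 0.43 for Ikzf2, -0.22 to 0.030 for Mcm2, -0.17 to 0.26 for Pdgfrb and -0.061 to 0.16 for Psmb11. The cause was not tested. The number of libraries, 2 per age, limits the precision of each value.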

Other observations

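Some gene families not yet described also differed between the ages. They were chosen after their values were seen, so their counts are descriptions. Notch ligands moved in both directions. Jag1 rose from 13.6 and 13.8 to 32.3 and 39.7 CPM (log2 fold change 1.39, adjusted p = 0.0209), Jag2 rose by 1.03 (94.7% of its counts are in assembled transcripts) and Dll1 by 1.71, whereas Dll4 and the receptor gene Notch1 fell. Notch3 had a log2 fold change of -0.63 (adjusted p = 0.126). With a library left out, 1 to 3 of the 8 tested Notch receptors and ligands rose and 0 to 3 fell.

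Of 12 tested Toll-like receptors, which sense microbial molecules, 4 rose (Tlr7 by 1.17, Tlr8 by 1.35, Tlr11 by 2.83 and Tlr13 by 1.28). These are 33.3%, against 3.84% of all tested genes. Higher libraries at 3M were found in 11 of the 12, and in 27.9% of all tested genes, and the median log2 fold change was 1.08. Tlr11 met the filter on low counts only through its 3M libraries. With a library left out, 0 to 8 were called. Of 11 tested killer cell lectin-like receptors, 4 rose (36.4%, against 3.84% of all tested genes): Klrk1, Klrb1c, Klrc2 and Klra3. The last rose from 0.310 and 0.184 to 3.91 and 4.37 CPM (log2 fold change 4.03, adjusted p = 0.0195, with 87.7% of its counts in assembled transcripts). For Klrc2 and Klra3 neither 2W library reached the level of the filter on low counts, so their direction was fixed by the filter. Between 4 and 7 rose with a library left out. Their sum was 8.92 and 7.93 CPM at 2W and 42.4 and 39.7 CPM at 3M.

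Of 39 tested potassium channel subunits, 9 rose (23.1%, against 3.84% of all tested genes) and none fell. For Kcnk1, among the 9, neither 2W library reached the level of the filter on low counts, so its direction was fixed by the filter. Kcnk2 rose from 6.88 and 7.38 to 31.2 and 24.4 CPM (log2 fold change 1.96, adjusted p = 0.0163), Kcnj15 by 1.52 and Kcnh1 by 2.25.

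At 6W, Elovl3 stood at 0.195 and 0.0897 CPM, below both 2W libraries. These held only 5 and 4 counts, so this order rests on very few counts. Ptpn14, which fell, stood at 126 and 120 CPM at 6W, below the 128 and 144 CPM of 3M.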
